A study of Mus musculus with 5 samples.

Results

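The 32 genes described here carry out glycolysis or belong to the cellular response to low oxygen. By role they were 14 glycolytic enzymes, 2 regulators of glucose use (Pfkfb3 and Pdk1), 4 membrane transporters of glucose or lactate, 3 genes of oxygen sensing (Hif1a, Egln1 and Egln3) and 9 hypoxia targets of other functions. They were taken from the count matrix by symbol, and all 32 were found among its 32285 genes. They filled 33 rows, because Aldoa was listed under a pair of identifiers that held 158231 and 4 UMIs (unique molecular identifiers, each standing for 1 captured RNA molecule), which were added together.

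The data were single-cell RNA counts from kidneys of male C57BL/6J mice in a model of unilateral ischaemia-reperfusion, in which the left renal pedicle was clamped for a set time and released while the right kidney was kept. The conditions were a sham operation without the clamp and acute kidney injury at each of days 1, 3, 14 and 28, each 1 sample in the labels, which name no genetic change or drug. The study's methods describe tissue of several mice per condition and name more matrices than there are libraries here, so how the mice fall into the libraries is not known. The matrix held 5 libraries, told apart by the number that ends each cell barcode, and the labels used here do not say which number belongs to which condition. The libraries are therefore called 1 to 5, no condition is compared with another, and no p-value is given. Log2 ratios between cell classes are taken within each library, while shares within gene families pool the libraries.

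Glycolysis splits glucose into pyruvate in the cytosol and yields ATP without oxygen. The proximal tubule of the healthy kidney takes its ATP mainly from fatty acids in mitochondria and is a site of gluconeogenesis, the making of new glucose, whereas the distal segments and the collecting duct are known to burn glucose. Neutrophils hold few working mitochondria and live largely on glycolysis. When oxygen is short, prolyl hydroxylases such as Egln1 and Egln3 no longer mark the transcription factor subunit Hif1a for destruction, and the factor switches on glycolytic enzymes, glucose and lactate transporters, and secreted factors such as Vegfa.

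After cell calling and filters, 57599 cells were kept, 8281 to 18938 per library, with 51110709 to 94801445 UMIs per library and a median of 4614 UMIs and 1697 genes per cell. The labels give the cell type of every sample as goblet cell, and the data went against this. The 7 goblet cell markers summed to 177 UMIs over all 57599 cells, Zg16 was at 0, and 5 cells held more than 1 of the markers, so the cells are described by kidney and immune markers. Cells were gated on markers outside the 32 genes: 39014 were proximal tubule-like (13579 of them S1/S2-like and 5573 S3-like, the early and late parts of that segment), 706 thick ascending limb-like, 417 distal convoluted tubule-like, 251 connecting tubule-like, 183 principal cell-like, 71 intercalated cell-like, 90 podocyte-like, 1188 neutrophil-like and 1439 monocyte/macrophage-like. A class is given a level in a library only if it had at least 20 cells there. A set of 351 barcodes (0.613%) occurred in more than 1 library.

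A gate on Havcr1, Krt20 and Lcn2, genes that damaged tubule cells switch on, held 352 injured tubule-like cells, of which 28, 65 and 249 were in libraries 1, 2 and 3. Their leading genes were Havcr1, Cryab, Vcam1, Sprr1a and Defb1, and Umod, a thick ascending limb gene, was also among the first 10. The proximal tubule markers took 24.2 of 10000 UMIs in them against 112 in proximal tubule-like cells, and the thick ascending limb markers took 6.48 against 0.278, so the gate mixed segments. A further gate on Vcam1, Dcdc2a, Sema5a, Il34 and Cdh6, meant for tubule cells that fail to repair, held 341 cells led by Tagln, Acta2, Akap12 and Sparc, which stromal cells also use. It was given no cell type name and is called Vcam1/Cdh6-gated.

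Hypoxia-inducible factors bind the core letters ACGTG or GCGTG. These were searched on both strands in the 250 bases upstream of each start of a gene in RefSeq (GRCm38.p6). Of the 32 genes 29 were matched, all but Slc2a3, Ndrg1 and Bhlhe40. Some of these 29, such as Hk1 and Pfkm, had several starts and were counted by the window with the most matches. The motif was present for 27 of the 29 (93.1%), all but Gpi1 and Tpi1, against 41.5% of 27025 genes with a promoter of this length, and 75.9% of the 29 held at least 2 matches against 18.7% of all. The median GC content of these windows was 64% for the 29 and 52% for all. The parts of base composition and of the number of starts in these shares were not tested. The members were picked as genes of glycolysis or the response to low oxygen, so these shares are no separate evidence of that role. A match is a string of letters, not evidence that the factor binds there. The windows of a hexokinase, a glucose transporter, a lactate exporter and a prolyl hydroxylase that the comparisons below call are printed 5′ to 3′ on the gene's strand, with the motif in capitals on either strand.
Hk2, chr6:82774455-82774704, minus strand: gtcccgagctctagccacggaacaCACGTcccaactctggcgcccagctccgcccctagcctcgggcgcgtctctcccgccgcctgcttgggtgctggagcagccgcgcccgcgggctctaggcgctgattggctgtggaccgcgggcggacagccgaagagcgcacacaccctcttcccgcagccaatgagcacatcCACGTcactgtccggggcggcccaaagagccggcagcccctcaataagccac
Slc2a1, chr4:119108495-119108744, plus strand: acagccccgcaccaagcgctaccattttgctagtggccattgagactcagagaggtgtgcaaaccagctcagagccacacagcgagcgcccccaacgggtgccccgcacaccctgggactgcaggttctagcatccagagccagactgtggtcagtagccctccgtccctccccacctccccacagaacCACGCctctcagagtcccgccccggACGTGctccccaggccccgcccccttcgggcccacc
Slc16a3, chr11:120948817-120949066, plus strand: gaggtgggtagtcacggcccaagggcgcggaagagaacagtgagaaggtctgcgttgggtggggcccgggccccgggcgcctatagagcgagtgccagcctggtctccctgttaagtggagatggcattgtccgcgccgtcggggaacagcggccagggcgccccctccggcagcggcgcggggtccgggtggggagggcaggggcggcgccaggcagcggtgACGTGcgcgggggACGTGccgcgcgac
Egln3, chr12:54203875-54204124, minus strand: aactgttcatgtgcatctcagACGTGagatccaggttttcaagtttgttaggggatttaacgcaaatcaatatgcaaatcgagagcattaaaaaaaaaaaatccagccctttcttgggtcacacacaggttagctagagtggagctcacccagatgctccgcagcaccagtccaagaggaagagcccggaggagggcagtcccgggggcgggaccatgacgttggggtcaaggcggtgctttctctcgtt

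Levels are in CPM, the UMIs of a gene per 1000000 UMIs of a class within a library, and a gene is compared only with itself across classes, since 3′ counts do not rank different genes. The ranking took in classes with levels in at least 2 libraries, which left out intercalated cell-like cells. It also left out the subsets of the proximal tubule-like and monocyte/macrophage-like classes. Each median is over the libraries of its own class, and these differ between classes. Ordered by their median over libraries, 6 of the 32 genes were highest in neutrophil-like cells, 6 in distal convoluted tubule-like cells, 5 in principal cell-like cells, 4 each in proximal tubule-like and podocyte-like cells, 3 in thick ascending limb-like cells, 2 in connecting tubule-like cells, and 1 each in endothelial-like and Vcam1/Cdh6-gated cells. For 28 of the 32 the libraries of the highest class overlapped those of the next. The exceptions were the lactate exporter Slc16a3 and the high-affinity glucose transporter Slc2a3, both highest in neutrophil-like cells, and the secreted factors Vegfa and Adm, both highest in podocyte-like cells. Adm stood clear of its next class only: injured tubule-like cells of library 1 were at 185 CPM, above 167 in podocyte-like cells of library 2. No share over all genes is given for such overlap, so these counts are not read as a trait of the members.

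Among the enzymes, the hexokinase Hk1, which traps glucose in the cell, was highest in thick ascending limb-like cells at a median of 146.5 CPM, next to 141 in principal cell-like cells. Hk2, the inducible hexokinase, was highest in Vcam1/Cdh6-gated cells at 64.4 and reached 60.4 in thick ascending limb-like cells. The distal convoluted tubule-like cells held the highest levels of Gpi1 (353 CPM), Pfkm (58.7), Pgk1 (507), Pgam1 (320.1) and the pyruvate kinase gene Pkm (839), and of the oxygen sensor Egln1 (58.0). Thick ascending limb-like cells were highest for the phosphofructokinases Pfkl (48.2) and Pfkp (102), connecting tubule-like cells for Aldoa (1265) and the pyruvate dehydrogenase kinase Pdk1 (70.9), and principal cell-like cells for Gapdh (2107), Ldha (578), Pfkfb3 (55.0), Hif1a (149) and the transcription factor Bhlhe40 (416). Intercalated cell-like cells, outside the ranking, were higher in library 3 for Pfkfb3 (65.9) and Bhlhe40 (499.7). The classical monocyte-like subset, also outside it, had a higher median of Hif1a by the values given below. Proximal tubule-like cells were highest for Tpi1 (513), the lactate and ketone carrier Slc16a1 (35.2), the mitophagy gene Bnip3 (94.0) and Ndrg1 (2258).

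Outside the tubule, neutrophil-like cells had the highest median for Eno1 (269 CPM), Slc16a3 (428), Slc2a1 (131), Slc2a3 (121), Egln3 (36.5) and Ankrd37 (20.6). The Eno1 rank depends on the use of medians, since the monocyte/macrophage-like median also takes in library 5. With libraries summed, Eno1 was at 310 CPM in monocyte/macrophage-like cells and at 274 in neutrophil-like cells. The former were higher in libraries 3 and 4 (438 and 420 against 302 and 306). They were lower in libraries 1 and 2 (175 and 218 against 196 and 236). Podocyte-like cells were highest for Vegfa (615), Adm (234) and the collagen prolyl hydroxylase subunits P4ha1 (83.1) and P4ha2 (48.3), and endothelial-like cells for Ddit4 (172), a brake on growth signalling. The podocyte-like levels rest on libraries 2 and 3, those of P4ha1 and P4ha2 on 8 and 5 UMIs. By the markers of other classes, up to 20.2% to 36.9% of podocyte-like UMIs could be free RNA. P4ha2 was nearly as high in stromal-like (45.9) and endothelial-like cells (44.9).

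**Figure D1:**
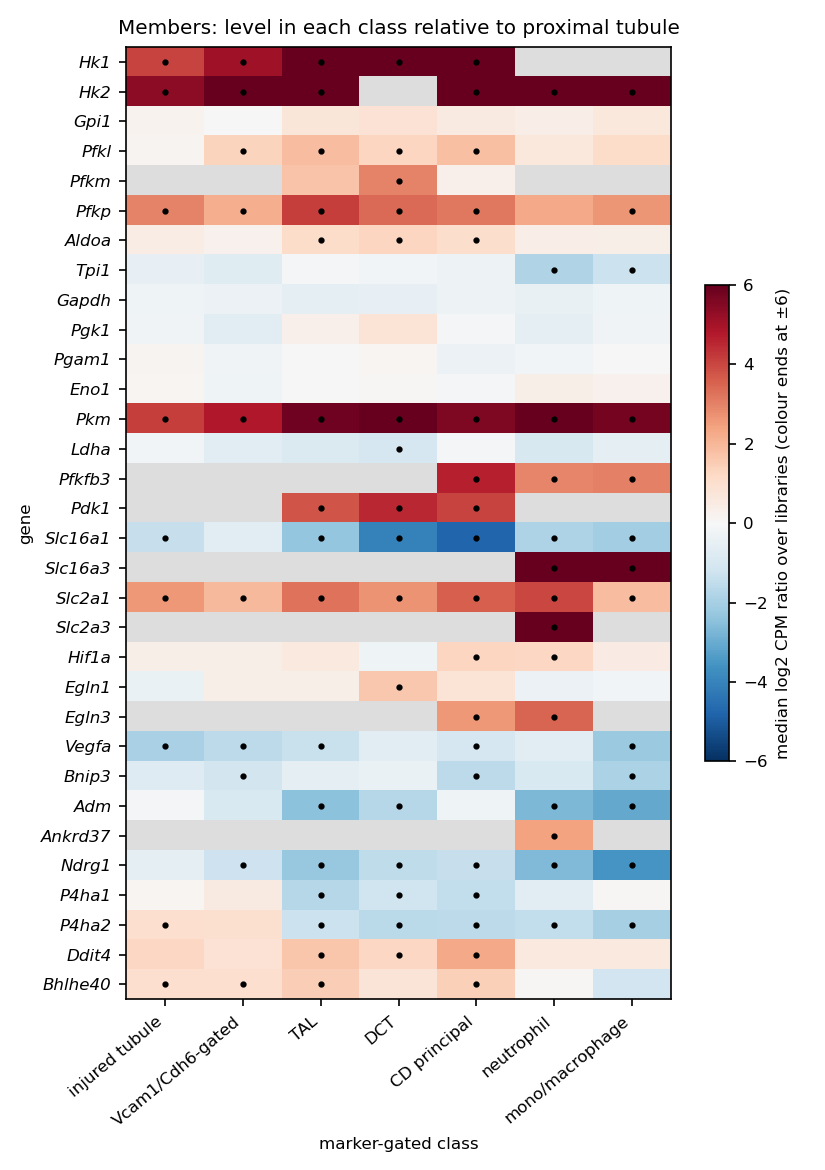
Heat map of the 32 genes (rows) in 7 cell classes (columns), coloured by the median over libraries of the log2 ratio to proximal tubule-like cells, with the scale ending at 6 in either direction. A dot marks a gene at least 2-fold apart in the same direction in every library compared, and grey marks a gene not compared. Hk1, Hk2, Pkm, Pfkp and Slc2a1 are higher in most columns, and Ndrg1 and Slc16a1 are lower in most.

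In injured tubule-like cells the hexokinases Hk1 and Hk2, the phosphofructokinase Pfkp, the pyruvate kinase gene Pkm and the glucose transporter Slc2a1 were all higher than in proximal tubule-like cells, by log2 ratios between 2.61 and 5.37 (median of libraries 1 to 3, with 0.5 UMI added to each sum). A gene is called here if it was at least 2-fold apart and in the same direction in every library compared, among genes with a mean of at least 10 CPM. The mean is over both classes, with libraries summed. A gene low in 1 class therefore passes only by being high in the other, as Hk1, Hk2, Pkm, Pfkp and Slc2a1 did. The limit thus bears on the counts of calls here and below, for members and all genes alike. Of 25 members that passed this limit 7 were called higher, where 13.3% of 7960 genes were, and 2 were called lower, where 8.37% of genes were. The median log2 ratio was 0.15 over the members and 0.20 over all genes.

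Hk2 stood at 3.85, 68.9 and 14.5 CPM in the injured tubule-like cells of libraries 1, 2 and 3, against 0.181, 0.768 and 0.348 in the proximal tubule-like cells of the same libraries, a log2 ratio of 5.37 (libraries 4.90 to 6.48). The value of library 1 rests on 1 UMI. Pkm stood at 119, 129 and 239 CPM against 8.84, 7.23 and 12.3, a log2 ratio of 4.16 (3.78 to 4.29). For both genes every injured tubule-like value lay above every proximal tubule-like value. Hk1 was at 7.70, 18.2 and 40.3 CPM against 1.09, 0.887 and 2.43, a log2 ratio of 4.06 (3.13 to 4.39), and again the ranges did not overlap.

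Pfkp, which commits sugar to glycolysis, was at 80.8, 74.1 and 60.2 CPM in the injured tubule-like cells and at 10.6, 11.4 and 6.65 in the proximal tubule-like cells, a log2 ratio of 2.96 (2.71 to 3.18). Slc2a1, which lets glucose in, was at 77.0, 24.7 and 50.6 CPM against 10.1, 5.64 and 8.31, a log2 ratio of 2.61 (2.17 to 2.97). The last 2 higher calls, Bhlhe40 (1.03, libraries 0.30 to 1.15) and P4ha2 (1.02, 0.16 to 1.54), sat at the limit. The 2 lower calls were Slc16a1 (−1.39, −1.71 to −0.75), at 11.5, 14.3 and 13.8 CPM against 35.2, 48.9 and 23.7, and Vegfa (−1.94), at 0, 23.4 and 36.1 CPM against 49.7, 92.2 and 106.

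The other enzymes compared were within 2-fold. The aldolase gene Aldoa had a log2 ratio of 0.46, Gpi1 0.21, Pfkl 0.17, Pgam1 0.15, Eno1 0.10, Pgk1 −0.22, Gapdh −0.25 and Tpi1 −0.51, and the lactate dehydrogenase gene Ldha was at −0.14. Hif1a stood at 0.36 (libraries −0.44 to 0.44) and Egln1 at −0.39 (−0.68 to 0.38), so neither had a single direction. Bnip3 (−0.75) and Ndrg1 (−0.59) were lower in each library without reaching 2-fold. The 7 members under the limit of 10 CPM were Pfkm, Pfkfb3, Slc16a3, Slc2a3, Egln3, Pdk1 and Ankrd37.

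The gluconeogenesis genes, 4 in the list used here, were all called lower: G6pc, which releases free glucose (−4.03), Pck1 (−2.77), Fbp1 (−2.55) and Pcx (−1.45). Of 13 other glycolysis genes compared 1 was called higher, Ldhb (1.71), and 4 lower, among them Slc2a2 (−1.28), Pdk2 (−1.18) and Ldhd (−1.11), with a list median of −0.65. Of 17 other hypoxia response genes 2 were higher, among them Edn1 (4.95), and 2 lower, Ak4 (−3.06) and Car12 (−2.19), with a median of 0.20 equal to that of all genes. Among 10 genes that tissue dissociation switches on 2 were higher, Atf3 (2.37) and Egr1 (1.05).

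Within enzyme families the shares, with UMIs pooled over libraries, differed in the same cells. Hk2 made up 48.1% of the UMIs of Hk1, Hk2 and Hk3 in injured tubule-like cells and 22.1% in proximal tubule-like cells. In libraries 1 to 3 the injured tubule-like cells had 1, 53 and 24 Hk2 UMIs and 2, 14 and 67 Hk1 UMIs. The Hk2 share therefore rests largely on library 2. Pfkp made up 77.1% of the phosphofructokinase UMIs (Pfkl, Pfkm and Pfkp) against 26.8%. Ldha made up 17.3% of Ldha and Ldhb against 33.7%.

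The part of the segment mix in these values was not tested. In the 184 injured tubule-like cells that also carried proximal tubule markers, a choice made after the data were seen, the log2 ratios were 4.62 for Hk2, 2.73 for Hk1, 2.70 for Pkm, 2.51 for Pfkp and 2.08 for Slc2a1, and no member was called lower. Without library 2 the count of higher calls was 4. In proximal tubule-like cells Hk1 (0.283 to 2.43 CPM), Pkm (4.36 to 12.3) and Pfkp (4.47 to 11.4) lay below the level of empty barcodes in every library (4.77 to 12.5, 34.4 to 64.7 and 10.5 to 17.8). Hk2 did too (0.0206 to 0.768 CPM against 0.927 to 51.4), as did Pdk1 and Slc16a3. By the markers of other classes, free RNA could make up at most 0.0601% to 5.29% of the UMIs of proximal tubule-like cells, depending on the library. With the free RNA so allowed subtracted from each class, the injured tubule-like log2 ratios were 5.47 for Hk2, 4.33 for Pkm, 4.07 for Hk1, 3.03 for Pfkp and 2.62 for Slc2a1.

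The Vcam1/Cdh6-gated cells had the same 5 genes at the top, with the hexokinases further up. Of 25 members compared 7 were called higher, where 25.7% of 8662 genes were, and 3 lower, where 11.1% were, so the share of members called higher was near that of all genes. The member median was 0.26 and that of all genes 0.46. Hk2 was at 64.4, 68.7 and 31.2 CPM in libraries 1 to 3, a log2 ratio to proximal tubule-like cells of 6.53 (6.47 to 8.39). Hk1 was at 37.5, 44.4 and 50.7 CPM (5.11, 4.43 to 5.64), and Pkm at 256, 205 and 187 CPM (4.82, 3.95 to 4.85). All 3 genes exceeded their proximal tubule-like levels in each library without overlap.

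Pfkp (2.17), Slc2a1 (1.96), Pfkl (1.32, libraries 0.21 to 1.61) and Bhlhe40 (1.02) made up the other higher calls. The lower calls were Vegfa (−1.58), Ndrg1 (−1.25) and Bnip3 (−1.09). Of 20 other hypoxia response genes compared 4 were higher, among them Stc2 (6.26), Edn1 (4.15) and Plod2 (2.75), and 3 were lower, among them Ak4 (−2.82) and Car12 (−2.39). All 4 gluconeogenesis genes and 6 of 13 other glycolysis genes were lower, among them Ldhd (−2.57), and 5 of 10 dissociation genes were higher, led by Atf3 (2.88) and Egr1 (2.64).

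Stromal markers took 2.63 of 10000 UMIs in the Vcam1/Cdh6-gated cells against 0.0310 in proximal tubule-like cells, and their part in these values was not tested. In the 108 of these cells with proximal tubule markers Hk2 was at a log2 ratio of 6.89, Hk1 at 3.86, Pkm at 3.71, Pfkp at 2.35 and Slc2a1 at 1.38, with no member lower, and without library 2 the lower calls numbered 5. The injured tubule-like and Vcam1/Cdh6-gated comparisons share their proximal tubule-like cells, so their likeness is not a separate result.

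Along the proximal tubule few genes of any kind were called, and the share of members called was near that of all genes. Between S3-like and S1/S2-like cells 1 of 20 members compared was called higher, where 3.2% of 7464 genes were, and 1 was called lower, where 3.75% were. Ddit4 was at 99.3, 31.2, 9.95, 16.4 and 16.5 CPM in the S3-like cells of libraries 1 to 5 and at 20.3, 14.6, 9.65, 7.25 and 6.75 in the S1/S2-like cells, a log2 ratio of 1.19 (0.26 to 2.28). Slc16a1 was at 18.1, 24.1, 13.3, 20.2 and 12.5 CPM against 72.1, 77.0, 27.9, 46.4 and 69.9, a log2 ratio of −1.67 (−2.48 to −0.90). S3-like values of Slc16a1 lay below every S1/S2-like value, while those of Ddit4 overlapped.

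The other enzymes compared in S3-like cells lay within 2-fold, with log2 ratios from −0.37 for Gapdh to −0.10 for Pfkl. The 12 members under 10 CPM included Hk1, Hk2, Pfkp, Pkm and Slc2a1, so these 5 of the 9 members called in injured tubule-like cells were low in both parts of the proximal tubule. Egln3, also under 10 CPM, was higher in each library (1.44, 1.19 to 2.18), on 335 and 190 UMIs, with 1 S3-like UMI in library 3. Without reaching 2-fold, Slc2a1 (0.41) was higher and Pfkm (−0.81), Pdk1 (−0.62) and Ankrd37 (−0.84) were lower in each library. Of the other lists Pdk4 (1.49) and Ak4 (1.19) were higher and Car12 (−2.41) and Slc2a2 (−1.90) lower, and no gluconeogenesis or dissociation gene was called. Library 3 had 64 S3-like cells, and without library 1, 3 or 4 the lower calls numbered 2. With gate limits doubled Ddit4 was not called.

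The thick ascending limb, distal convoluted tubule and collecting duct were each set against the proximal tubule, and in each the enzyme genes Hk1, Pfkl, Pfkp, Aldoa and Pkm, the kinase gene Pdk1, the glucose transporter Slc2a1 and Ddit4 were called higher, and Ndrg1, P4ha1, P4ha2 and Slc16a1 lower. Other genes of the same families went the other way: the glucose transporter Slc2a2 was at −4.22, −3.37 and −3.32 in the order given, and the pyruvate dehydrogenase kinase Pdk4 at −1.63, −1.03 and −2.82. These comparisons share the proximal tubule-like cells, and each is given by its own values. With libraries summed, Hk1, Pfkp, Pkm, Pdk1 and Slc2a1 were under 10 CPM in proximal tubule-like cells and passed the limit through the other class. So did Hk2 in thick ascending limb-like and principal cell-like cells, Pfkm in distal convoluted tubule-like cells, and Pfkfb3 and Egln3 in principal cell-like cells. In thick ascending limb-like cells 10 of 27 members were called higher, where 16.6% of 8103 genes were, and 6 were called lower, where 12.4% were, with a median of 0.36 over members and 0.24 over all genes. In distal convoluted tubule-like cells 10 of 26 were higher, where 17.3% of 8109 genes were, and 6 lower, where 12.6% were (medians 0.45 and 0.24). In principal cell-like cells 13 of 29 were higher, where 25.9% of 8482 genes were, and 6 lower, where 13.1% were (medians 0.55 and 0.41).

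Hk1 was at 154, 138, 108, 146 and 169 CPM in the thick ascending limb-like cells of libraries 1 to 5, where the proximal tubule-like cells had 0.283 to 2.43, a log2 ratio of 7.27 (5.46 to 8.99). It was at 149, 129.5, 100.5 and 149 CPM in the distal convoluted tubule-like cells of libraries 1, 2, 3 and 5 (7.15) and at 141, 98.2 and 141 in the principal cell-like cells of libraries 1 to 3 (6.80). The 3 segments overlapped in their Hk1 level and all stood clear of the proximal tubule. Hk1 formed 81.4% of hexokinase UMIs in thick ascending limb-like cells and 94.3% in distal convoluted tubule-like cells.

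Hk2 was less even across the segments. It was at 62.4, 60.4, 9.83, 115 and 0 CPM in thick ascending limb-like cells (6.30) and at 77.0, 54.6 and 37.7 in principal cell-like cells (6.74), whereas distal convoluted tubule-like cells had 0, 10.8, 12.1 and 0 in libraries 1, 2, 3 and 5 and were under the 10 CPM limit. The thick ascending limb-like and distal convoluted tubule-like values overlapped, and in library 3 the latter was the higher. In library 5 the thick ascending limb-like sum was 0 UMIs, so the call there rests on the 0.5 UMI added. Library 3, with 390 of the 706 cells, had the lowest of the other values.

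Pkm was at 508, 381, 334, 369 and 467 CPM in thick ascending limb-like cells (5.84, 4.77 to 6.41), and at 983, 759, 567 and 918 in distal convoluted tubule-like cells (6.76, 5.53 to 6.98). Every distal convoluted tubule-like value exceeded every thick ascending limb-like value. In principal cell-like cells it was at 495, 349 and 571 CPM (5.60). The pyruvate dehydrogenase kinase Pdk1, which slows the turning of pyruvate into acetyl-CoA in mitochondria, was at 47.9, 42.3, 43.6, 31.8 and 30.1 CPM in thick ascending limb-like cells against 1.25 to 3.46 in proximal tubule-like cells (3.80, 3.66 to 5.27), with 4.51 in distal convoluted tubule-like and 4.06 in principal cell-like cells.

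Pfkp (4.17), Slc2a1 (3.24), Pfkl (1.83), Ddit4 (1.67), Bhlhe40 (1.45) and Aldoa (1.08) completed the higher calls of the thick ascending limb-like cells. In distal convoluted tubule-like cells the muscle-type phosphofructokinase Pfkm was also higher (2.96, 1.22 to 3.25), at 69.1, 64.8, 18.1 and 52.7 CPM, and made up 96 of 384 phosphofructokinase UMIs. Pfkp (3.42), Slc2a1 (2.72), Egln1 (1.62), Aldoa (1.29), Pfkl (1.27) and Ddit4 (1.25) were the other calls there. Principal cell-like cells added Pfkfb3, which makes the activator of phosphofructokinase (4.67, 1.87 to 4.73), at 55.0, 76.4 and 23.0 CPM, and the oxygen-sensing genes Egln3 (2.60) and Hif1a (1.28). Slc2a1 (3.57), Pfkp (3.15), Ddit4 (2.29), Pfkl (1.81), Bhlhe40 (1.41) and Aldoa (1.06) were their remaining calls.

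On the lower side, Ndrg1 was at 448, 428, 357, 650 and 455 CPM in thick ascending limb-like cells against 2273, 2258, 1404, 2447 and 2222 in proximal tubule-like cells (−2.28, −2.40 to −1.91). The groups did not overlap. In the same cells Adm was at −2.45, Slc16a1 at −2.32, P4ha1 at −1.71, Vegfa at −1.36 and P4ha2 at −1.27. Slc16a1 had 6 UMIs in all the distal convoluted tubule-like cells compared and 4 in the principal cell-like cells, with log2 ratios of −4.06 and −4.75 that depend on the 0.5 UMI added.

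The other lower calls of distal convoluted tubule-like cells were Adm (−1.72), P4ha2 (−1.63), Ndrg1 (−1.55), P4ha1 (−1.20) and Ldha (−1.01), and those of principal cell-like cells were Bnip3 (−1.59), P4ha2 (−1.55), P4ha1 (−1.48), Ndrg1 (−1.39) and Vegfa (−1.03). Gapdh (−0.54 in thick ascending limb-like, −0.47 in distal convoluted tubule-like and −0.29 in principal cell-like cells) was not called in any of them. Ldha made up 15.7% of lactate dehydrogenase UMIs in thick ascending limb-like cells and 9.49% in distal convoluted tubule-like cells, against 33.7% in proximal tubule-like cells, the rest being Ldhb.

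The 4 gluconeogenesis genes were lower in all 3 segments, with list medians of −3.91, −3.26 and −4.14 in the order given. Of the other glycolysis genes 2 of 15 were higher and 4 lower in thick ascending limb-like cells, among them the insulin-responsive glucose transporter Slc2a4 (8.94), the monocarboxylate carrier Slc16a7 (7.62) and Slc2a2 (−4.22). In distal convoluted tubule-like cells 4 of 16 were higher and 4 lower, among them the muscle-type mutase Pgam2 (8.44), Slc16a7 (8.41) and Aldoc (4.78), and in principal cell-like cells 2 of 15 were higher, Pgam2 (6.57) and Slc16a7 (6.37), and 5 lower.

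Other hypoxia response genes gave 2 higher and 1 lower of 17 in thick ascending limb-like cells (Edn1 4.13, Mxi1 1.12, Ak4 −2.97), 1 higher and 3 lower of 15 in distal convoluted tubule-like cells (Mxi1 1.12, Ak4 −3.72, Plod2 −2.27, Car12 −1.30) and 1 of each in 17 in principal cell-like cells (Edn1 4.89, Ak4 −3.19). Of 10 dissociation genes 5, 6 and 5 were higher and none lower. Intercalated cell-like cells could be compared in library 3 alone, with 38 cells. There 10 of 26 members were at least 2-fold higher, where 20.2% of 8066 genes were, and 3 lower, where 13.4% were, led by Hk1 (5.34), Pkm (4.65), Pdk1 (3.41) and Pfkfb3 (3.40) and by P4ha1 (−2.84, on 1 UMI).

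**Figure D2:**
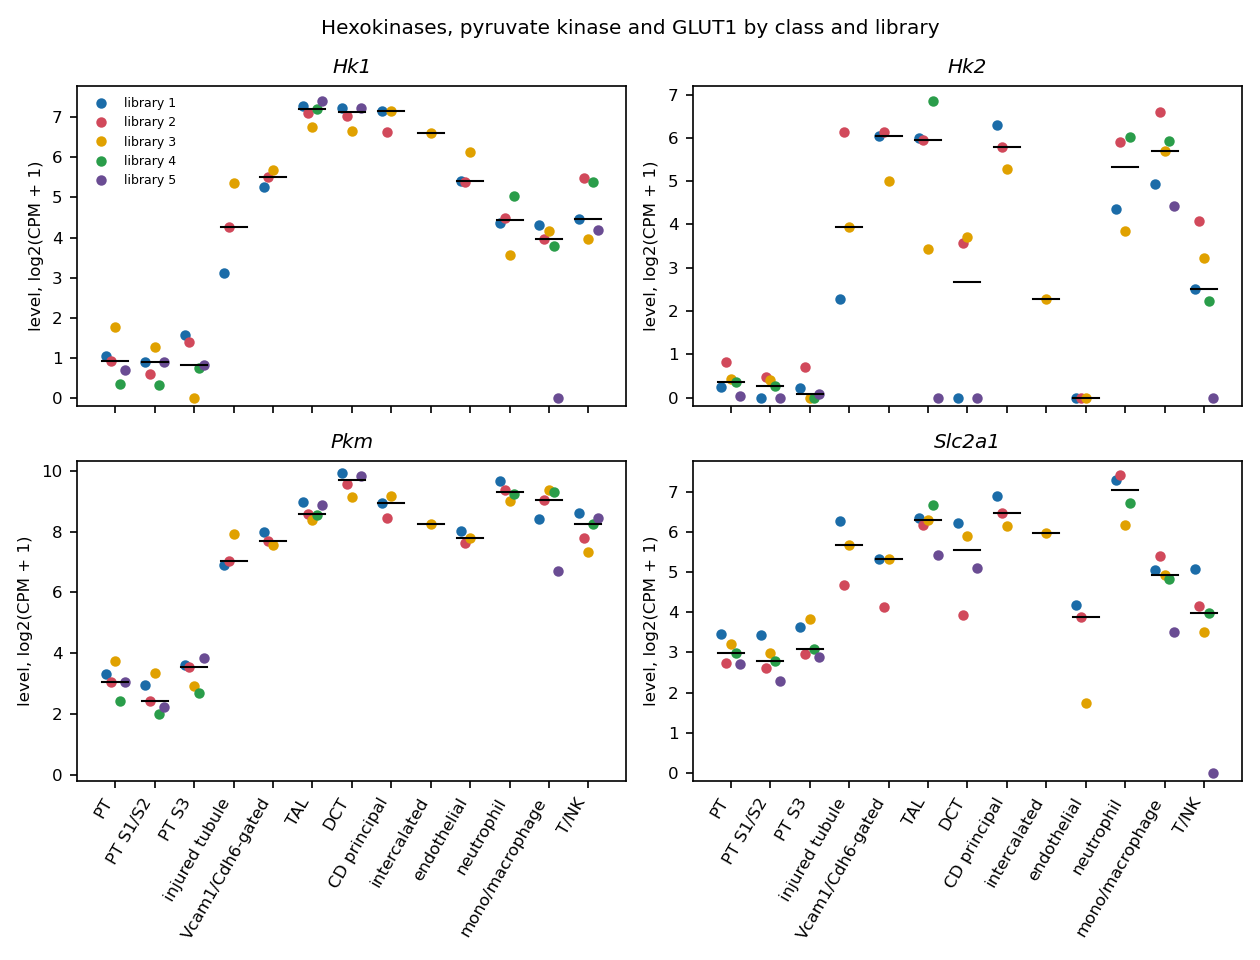
Levels of Hk1, Hk2, Pkm and Slc2a1 as log2(CPM + 1) (vertical axis) in each cell class (horizontal axis), 1 point per library with at least 20 cells and a bar at the median over libraries. The medians of the proximal tubule-like cells and of their S1/S2-like and S3-like subsets are the lowest 3 for Hk1, Pkm and Slc2a1, and Hk2 points of the thick ascending limb-like class spread from 0 to 115 CPM.

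Neutrophil-like cells differed from monocyte/macrophage-like cells in 3 of the transporters, while no enzyme of glycolysis was called. The genes called higher were the glucose transporters Slc2a3 and Slc2a1, the lactate exporter Slc16a3, the prolyl hydroxylase Egln3, and Bnip3 and Vegfa. The other oxygen sensing genes were not called, with Hif1a at 0.46 (libraries −0.93 to 1.47) and Egln1 at −0.54 (−1.20 to 1.92). Over libraries 1 to 4, with 1186 neutrophil-like and 1385 monocyte/macrophage-like cells, these were 6 of 27 members, where 14.2% of 7195 genes were called higher, and 0 were called lower, where 15.6% of genes were. The member median was 0.15 and that of all genes −0.09.

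Slc16a3 was at 450.3, 786, 405 and 364 CPM in neutrophil-like cells and at 29.4, 50.7, 42.3 and 51.2 in monocyte/macrophage-like cells, a log2 ratio of 3.60 (2.83 to 3.95) on 936 and 306 UMIs. The pooled ratio had a 95% interval of 3.45 to 3.83, which, like all such intervals here, covers counting error only. Slc2a3 was at 157, 153, 88.5 and 63.3 CPM against 2.10, 2.74, 3.19 and 0, a log2 ratio of 5.89 (4.71 to 7.27) on 192 and 16 UMIs. For both carriers every neutrophil-like library exceeded every monocyte/macrophage-like library.

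Egln3 was at 0, 60.1, 25.5 and 47.5 CPM in neutrophil-like cells and at 1.40, 1.83, 3.19 and 2.56 in monocyte/macrophage-like cells, a log2 ratio of 3.50 (2.48 to 4.89). Neutrophil-like cells of library 1, 54 in number, had no Egln3 or Vegfa UMI, so both calls rest there on the 0.5 UMI added. Slc2a1 was at 157, 170.0, 71.5 and 106 CPM against 32.2, 41.6, 29.6 and 27.3 (1.99, 1.27 to 2.35), with no overlap. Bnip3 (1.15, 0.78 to 1.97) and Vegfa (1.04, 0.16 to 1.57) were close to the limit.

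No enzyme was called between the 2 immune classes: Pfkl had a log2 ratio of −0.87 and Hk1 of 0.60, both with libraries in either direction, and Aldoa had a log2 ratio of 0.15, Pkm 0.14, Gpi1 −0.05, Eno1 −0.16, Gapdh −0.28, Hk2 −0.36 and Ldha −0.56. The families were split differently, however. Slc16a3 made up 99.0% of the UMIs of Slc16a1 and Slc16a3 in neutrophil-like cells, 83.9% in monocyte/macrophage-like cells and 1.21% in proximal tubule-like cells. Slc2a3 made up 49.4% of Slc2a1 and Slc2a3 in neutrophil-like cells and 6.37% in monocyte/macrophage-like cells, and Egln3 made up 77.5% of Egln1 and Egln3 against 11.3%. Hk3, a hexokinase of white blood cells, made up 40.3% of hexokinase UMIs in neutrophil-like cells and 20.5% in monocyte/macrophage-like cells, where Hk2 made up 63.4%.

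A UMI of Slc16a3 was found in 44.9% of neutrophil-like cells, 14.1% of monocyte/macrophage-like cells and 0.223% of proximal tubule-like cells, which served as background, at median depths of 1294.5, 3795 and 5450 UMIs. Thinned to 1000 UMIs per cell the shares were 38.3%, 3.81% and 0.0508%. For Slc2a3 the thinned shares were 9.50%, 0.224% and 0.0169%. The order of the classes by share was the order by CPM for both genes.

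Of 15 other glycolysis genes 3 were higher in neutrophil-like cells, among them Slc2a6 (2.20) and Ldhd (1.01), and of 4 gluconeogenesis genes Fbp1 was (1.37). Ldhd and Fbp1 are genes of the proximal tubule, whose markers took 14.9 of 10000 UMIs in neutrophil-like cells and 7.35 in monocyte/macrophage-like cells. Free RNA could make up at most 29.9% of the neutrophil-like UMIs in library 1 and 5.73%, 2.11% and 0.301% in libraries 2, 3 and 4. Its part in these calls was not tested. Among 17 other hypoxia genes Car12 (1.75) and Kdm3a (1.35) were higher and 3 were lower, among them Trf (−1.89) and Fam162a (−1.22). Of 10 dissociation genes 4 were lower, Hspa1a (−4.31), Atf3 (−1.46), Hspa1b (−1.10) and Jun (−1.02). Without library 1, and without library 4, 1 member was called lower.

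Against proximal tubule-like cells, both immune classes had more of the lactate exporter, Hk2 and Pkm. In neutrophil-like cells 9 of 29 members were called higher, where 18.9% of 7630 genes were, and 5 lower, where 32.1% were (medians 0.35 over members and −0.49 over all genes). The higher calls were Slc16a3 (10.02), Slc2a3 (9.56), Hk2 (6.75), Pkm (6.52), Slc2a1 (4.01), Egln3 (3.47), Pfkfb3 (2.92), Ankrd37 (2.42) and Hif1a (1.24), and the lower calls Adm (−2.68), Ndrg1 (−2.65), Slc16a1 (−1.84), Tpi1 (−1.79) and P4ha2 (−1.48). With libraries summed, all higher calls but Hif1a were under 10 CPM in proximal tubule-like cells and passed the limit through the neutrophil-like class. Egln3 had no UMI in library 1, where proximal tubule-like cells were at 6.94 CPM, so its call rests there on the 0.5 UMI added. Adm and P4ha2 rest on 13 and 6 UMIs, and each had none in 2 of the 4 libraries. Pkm was at 803, 666, 510.3 and 607 CPM in the neutrophil-like cells of libraries 1 to 4, all far above the 4.36 to 12.3 of proximal tubule-like cells. Pfkm, which proximal tubule-like cells held at 6.47 to 9.45 CPM, had no UMI in neutrophil-like cells.

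In monocyte/macrophage-like cells 6 of 26 members were called higher, where 19.4% of 7903 genes were, and 7 lower, where 25% were (medians 0.03 and −0.16). Slc16a3 (7.69), Hk2 (7.27), Pkm (5.76), Pfkfb3 (3.02), Pfkp (2.65) and Slc2a1 (1.84) were higher. With libraries summed, all 6 were under 10 CPM in proximal tubule-like cells and passed the limit through the monocyte/macrophage-like class. Hk2 was at 29.4, 96.4, 50.5, 59.8 and 20.6 CPM in libraries 1 to 5, against 0.0206 to 0.768 in proximal tubule-like cells, with no overlap. Ndrg1 (−3.53), Adm (−3.08), Vegfa (−2.21), Slc16a1 (−2.08), P4ha2 (−1.98), Bnip3 (−1.88) and Tpi1 (−1.31) were lower.

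All 4 gluconeogenesis genes were lower in each immune class, and of the other glycolysis genes 12 of 16 were lower in neutrophil-like and 12 of 14 in monocyte/macrophage-like cells. Hk3 (8.83), Slc2a6 (8.56) and Pfkfb4 (4.08) were the 3 higher in neutrophil-like cells. Other hypoxia response genes gave 4 calls in each direction in both classes, of 18 and 19 compared, with Hilpda, which guards lipid droplets, at 4.41 and 5.04.

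Within the monocyte/macrophage-like class, classical monocyte-like cells and C1q macrophage-like cells differed little. Over libraries 2 to 4, with 306 and 626 cells, 1 of 25 members was called higher in the monocyte-like cells, where 7.91% of 7193 genes were, and 0 lower, where 5.88% were. Hk1 was at 20.3, 22.1 and 32.2 CPM against 14.8, 10.3 and 9.01 (1.05, 0.75 to 1.93), on 28 and 47 UMIs, and the pooled ratio had an interval of 0.16 to 1.60. Hif1a was at 142, 202 and 234 CPM against 85.6, 127 and 136 (0.78, 0.66 to 0.80), higher in each library without reaching 2-fold.

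None of 15 other glycolysis genes or 4 gluconeogenesis genes was called. Among 16 other hypoxia genes Arnt, the partner of Hif1a, was higher (1.26) and 2 were lower, among them Hilpda (−2.64), and 3 of 10 dissociation genes were lower, Fosb (−1.32), Dnajb1 (−1.05) and Egr1 (−1.04). The Hk1 call sat at the limit. It was lost without library 4, where the count was 0, while without library 2 or 3 the higher calls numbered 2 and 3. Without library 3 and 4 in turn, 1 and 2 members were called lower.

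Most glycolytic enzymes were highest in library 1 in proximal tubule-like and thick ascending limb-like cells, the tubule classes looked at by library. In proximal tubule-like cells 4 of 20 members with enough counts spanned more than 2-fold from the lowest to the highest library, Slc16a1, Vegfa, Adm and Ddit4, where 15.8% of 7380 genes did. All 9 glycolytic enzymes with enough counts (Gpi1, Pfkl, Aldoa, Tpi1, Gapdh, Pgk1, Pgam1, Eno1 and Ldha) had their highest level in library 1, the library with the highest level for 31.6% of genes. Gapdh was at 2574, 1965, 1736, 2003 and 1779 CPM in libraries 1 to 5, Ldha at 815, 545, 566, 518 and 510.2, and Aldoa at 609, 383, 442, 436 and 427. Library 1 stood above the others by less than 2-fold for each of the 3.

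Within the proximal tubule-like class, library 1 was also highest for 8 of 9 enzymes in S1/S2-like cells, where it was highest for 34.8% of genes, and for 7 of 9 in S3-like cells (24.9%). It was highest for 10 of 14 in thick ascending limb-like cells (23.7%). In T/NK-like cells library 1 was highest for 5 of 12 enzymes (13.4% of genes), Gpi1, Aldoa, Gapdh, Pkm and Ldha. In monocyte/macrophage-like cells library 1 was highest for 1 of 13 enzymes (13.3% of genes), and in neutrophil-like cells it was highest for 3 of 13 (37.6% of genes) and library 4 for 7 (28.1%). The median share of mitochondrial UMIs in proximal tubule-like cells was also highest in library 1, at 14.4%, and lowest in library 3, at 9.29%, and its part was not tested. Whether these differences belong to a condition cannot be told, because the libraries are not tied to conditions here and each condition was 1 sample.

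Among the hypoxia targets, Ddit4 was highest in library 1 of the proximal tubule-like cells (56.8, 18.7, 10.2, 9.54 and 9.94 CPM in libraries 1 to 5), as was the low Ankrd37 (5.49 in library 1), and Adm, highest in library 3 (48.0), was at 45.2 in library 1. Vegfa was lowest in library 1 (49.7, 92.2, 106, 89.8 and 88.1), as were P4ha1 and Bhlhe40, and the oxygen sensing gene Hif1a was lowest there too (46.3, 62.5, 68.6, 58.0 and 63.6). The other oxygen sensing genes differed, with the low Egln3 highest in library 1 (6.94) and Egln1 lowest in library 3 (16.9). Ndrg1 was lowest in library 3, at 1404 CPM against 2222 to 2447 in the others.

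**Figure D3:**
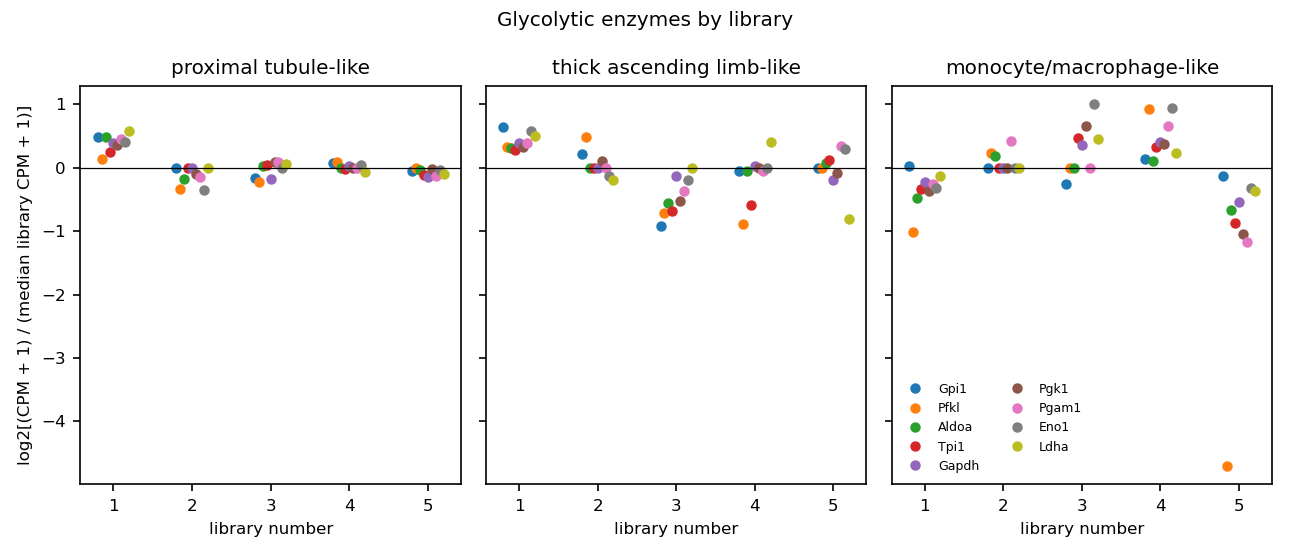
Level of 9 glycolytic enzymes in each of the 5 libraries relative to the median library, as log2[(CPM + 1)/(median CPM + 1)] (vertical axis), in proximal tubule-like, thick ascending limb-like and monocyte/macrophage-like cells. Points of library 1 lie highest for all 9 enzymes in proximal tubule-like cells. The lowest point in monocyte/macrophage-like cells is Pfkl in library 5, where 54 cells held no Pfkl UMI.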

How the data were processed

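Single-cell 3′ RNA libraries were measured in 5 kidney samples, 1 per condition. The authors aligned reads to mm10 with Cell Ranger 6.0 (6.0.1 in the matrix header, per the file headers) and deposited 1 matrix of raw UMI counts over all barcodes of 5 libraries. No normalised or annotated file was used. Cells were called in each library against the profile of barcodes ranked 45000 to 90000 (at least 500 UMIs, at most 20000 barcodes tested, 10000 simulations, adjusted p at most 0.01), which gave 70291 barcodes. Barcodes with under 200 genes (514) or over 25% mitochondrial counts (12641) were left out, some for both reasons. Classes were gated on marker shares per 10000 UMIs, with limits set after marker values were seen. No doublet caller was run: 1106 cells with markers of more than 1 class and 10336 with too few were left out, and 519, 305 and 565 cells lay within 20% of the limit of the monocyte/macrophage, injured tubule and Vcam1/Cdh6 gates, on either side of it and whatever their class.

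UMI counts were summed per class and library and divided by the class total. The value of a comparison is the median over libraries of the log2 ratio, with 0.5 UMI added to each sum, and 11 comparisons were made. Intervals are exact at 95% (Poisson, or binomial for ratios). All 32 members are named with their class of highest level, then members called, largest first, to at most 12 per comparison, and at most 6 genes of each other list, some of which are counted but not reported by name here. The members and lists were chosen with earlier results of these data known. Near copies make some counts uncertain: Eno1b held 1354 UMIs against 76521 of Eno1. Scripts were tested on simulated data. Python 3.11.15, numpy 2.4.6, scipy 1.17.1, pandas 2.3.3 and matplotlib 3.10.9 were used. Alternatives covered calling, filters, gates, depth, free RNA, scaling, fold and libraries left out. RNA velocity, spatial and knockout experiments were not analysed here.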

Additional observations from a re-analysis of the deposited data

Results flagged for a closer look

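In 8 of 101 groups of 4 or 5 libraries looked at, the highest or lowest library stood apart from the others by Dixon's criterion, and chance gives about 1 in 20. In proximal tubule-like cells library 1 was the high one for Aldoa (609 CPM, next 442), Ldha (815, next 566) and Ddit4 (56.8, next 18.7), library 3 was high for Pfkfb3 (6.42, next 2.94), and library 3 was low for Ndrg1 (1404, next 2222). In thick ascending limb-like cells library 1 was high for Pfkp (190.0, next 121) and library 5 for Vegfa (81.3, next 34.2). In monocyte/macrophage-like cells library 5, with 54 cells, was high for Ddit4 (92.8, next 21.0).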

How the results depend on the processing

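Counts of members called were recomputed under each alternative: 297 stayed within 1.5 times of the value given and 45 moved further. Log2 ratios of called members stayed within 1 SD over libraries 1712 times and moved further 125 times, none changing sign, and member medians did so 142 and 29 times. The cause of the moves below was not tested. With each cell thinned to 1000 UMIs, lower calls became 1 in injured tubule-like, 0 in Vcam1/Cdh6-gated, 2 in S3-like, 3 in each of thick ascending limb-like, distal convoluted tubule-like and principal cell-like, and 1 in neutrophil-like cells, and higher calls 4 in Vcam1/Cdh6-gated, 0 in S3-like and 4 in classical monocyte-like cells. With no filter on low values, higher calls became 11 in injured tubule-like, 16 in distal convoluted tubule-like and 2 in S3-like cells. The 16 take in Slc2a3 and Slc16a3, which had 1 and 2 UMIs in the distal convoluted tubule-like cells. In libraries where these genes had no UMI in that class, their direction rests on the 0.5 UMI added. No share over all genes is given without the filter, so these counts are not read as a trait of the members. Past 1.5-fold, lower calls became 4 in injured tubule-like, 8 in Vcam1/Cdh6-gated, 3 in S3-like, 1 in neutrophil-like against monocyte/macrophage-like and 8 in neutrophil-like against proximal tubule-like cells, and classical monocyte-like cells had 4 higher and 2 lower. Relative to the median of all genes, lower calls in Vcam1/Cdh6-gated cells became 8. With proximal tubule markers required, lower calls became 0 in injured tubule-like and 0 in Vcam1/Cdh6-gated cells. With UMIs summed over libraries, lower calls became 2 in S3-like and 1 in neutrophil-like cells, and with no calling step 1 in neutrophil-like cells. With gate limits doubled, S3-like cells had 0 higher calls and classical monocyte-like cells 0 higher and 2 lower. Classical monocyte-like cells had 0 higher calls with summed UMIs, relative to all genes, with mixed cells kept and at most 10% mitochondrial counts. Leaving out 1 library at a time gave higher calls of 4 to 7 in injured tubule-like and 0 to 3 in classical monocyte-like cells, and lower calls of 3 to 5 in Vcam1/Cdh6-gated, 1 to 2 in S3-like, 0 to 1 in neutrophil-like and 0 to 2 in classical monocyte-like cells. No value was possible for intercalated cell-like cells with at least 50 cells per library, at most 10% mitochondrial counts or without library 3, nor for podocyte-like cells thinned or without calling. Class ratios were taken within libraries except where UMIs were summed, and family shares pooled the libraries of each class. Depth limits the low members: Hk2, Slc2a3 and Egln3 had 1683, 415 and 1420 UMIs over all cells.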

Other observations

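Monocyte/macrophage-like cells with an Arg1 UMI, a gene of wound-type macrophages, were set against those without. Arg1 is no member, and the split was chosen after values were seen. Over libraries 2 to 4, with 167 cells with and 912 without, 11 of 13 glycolytic enzymes compared were higher in every library, where 18.6% of genes were. At least 2-fold were 5 enzymes, where 1.83% of genes were, and the enzyme median log2 ratio was 0.87 against −0.03 for all genes. Pgam1 was at 618 CPM with Arg1 and 265 without (1.37), Aldoa at 936 and 507 (1.04), Pgk1 at 448 and 221 (1.03), Pfkl at 60.7 and 22.6 (1.39) and Tpi1 at 395 and 204 (1.02). Slc2a1 (1.67) and Slc16a3 (1.10) were called too, whereas Hk2 (0.41, libraries −0.40 to 1.08) and Hif1a (0.38) were not. Cells with an Arg1 UMI were deeper, with library medians of 4867 to 13645 UMIs against 3562.5 to 4386. Thinned to 1000 UMIs, which left 74 cells with Arg1 and 627 without over libraries 3 and 4, 8 of 12 enzymes were higher in both libraries, where 44.9% of genes were, with medians of 0.77 and 0.43. At least 2-fold were then 4 of 12, where 24.0% of genes were. Of the 5 enzymes named, Pgam1 (1.03) was still called, and Pgk1 (0.91), Aldoa (0.84), Tpi1 (0.60) and Pfkl (0.20) were not.

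Among neutrophil-like cells of libraries 2 and 4, the 84 with a Siglecf UMI, a sialic acid-binding receptor, had less of the lactate exporter Slc16a3 than the 554 without, at 361 and 158 CPM against 846 and 416 (−1.25), on 35 and 544 UMIs. Of 26 members compared it was the 1 called lower, where 4.01% of 6391 genes were. The 1 called higher, where 23.4% of genes were, was Ddit4 (1.02) on 4 UMIs, and in library 4 its CPM was lower in cells with Siglecf (1 UMI against 5). Thinned to 1000 UMIs Ddit4 was not called (0.44), Slc16a3 still was (−1.27), and Bhlhe40 was called higher (1.13) and Pfkp, on 1 UMI, lower (−1.10). Of 6221 genes 32.3% were then called higher and 4.15% lower, with a median log2 ratio of 0.61 over all genes. This split was also chosen after values were seen.

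The share of Epas1, the other hypoxia-inducible factor, differed between classes. It made up 89.1% of the UMIs of Hif1a and Epas1 in endothelial-like cells, 13.9% in proximal tubule-like and 5.37% in monocyte/macrophage-like cells. All hexokinase UMIs of endothelial-like cells were Hk1, and Ldha made up 75.8% of their lactate dehydrogenase UMIs. In T/NK-like cells Slc2a3 made up 51.8% of Slc2a1 and Slc2a3, close to the 49.4% of neutrophil-like cells. Empty barcodes of library 4 held 318 Hk2 UMIs, 51.4 CPM, against 0.927 to 8.75 CPM in those of the other libraries and 0.283 CPM in the proximal tubule-like cells of library 4.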
